A study of Drosophila melanogaster with 3 samples.

Results

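Among the regions called bound by the BEN-domain protein Insensitive in Drosophila melanogaster embryos, 244 lay at single gene starts, which is 33.3% (exact 95% interval 29.9 to 36.9%) of those that passed the authors' reproducibility threshold. Such a region had its summit within 500 bp of the annotated start of a protein-coding transcript, and no other protein-coding gene began head to head with that nearest start, on the opposite strand, within 1000 bp. The remaining thresholded regions were 168 at divergent starts, where such a neighbour exists, and 320 farther than 500 bp from any protein-coding start. Within the thresholded list the choice used position and annotation only, and sequence was not part of it. Signal and agreement between replicates entered through the authors' threshold, and nearness to a start through the rule.

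The regions come from chromatin immunoprecipitation and sequencing of embryos of both sexes aged 0 to 24 hours. All embryos carried the insv-GFP fusion, with GFP on the C-terminal end, and the tag was the target of the antibody used on sonicated chromatin. There was 1 group, with 3 biological replicates and no second genotype, treatment or stage, so a value here averages over all tissues and ages of the embryo. The promoter of the tagged gene and its copy number were not given in the sources used here. Signal is the authors' own value for each region, its scale is not stated, and it was used only to order regions within a list. The replicates were compared by rank among the 30000 regions listed for each.

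Insensitive recognises DNA through its BEN domain, a fold shared with the Elba proteins of the fly, and is known as a nuclear co-repressor, among other things of Notch target genes in the developing nervous system. Its best known binding sequence is the palindrome CCAATTGG, while the Elba complex is known for the related, asymmetric CCAATAAG. BEN proteins of this family have also been linked to chromatin boundaries and to the separation of neighbouring promoters.

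Sites of 6 of the 8 strongest members with a palindrome are shown, and those of Aldh-III and egl are left out. The following 28-base stretches of the release 6 (dm6) assembly are written along the direction of transcription, with CCAATTGG in capitals; the base before the capitals is T and the base after them is A in these 6, while the sites of Aldh-III and egl have only 1 of these bases.

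CG10602 and mRpL13, chr2L:18859326-18859353, minus strand: taatatgaatCCAATTGGaatgtgtctg
Plod, chr3L:11205728-11205755, minus strand: gatgccgagtCCAATTGGaatggtttgt
mid, chr2L:5461424-5461451, plus strand: cgccgattttCCAATTGGaaaacgagag
sens-2, chr2L:6821821-6821848, plus strand: ttccgccgttCCAATTGGaaccagccgt
Alp12, chr2L:19426273-19426300, plus strand: ccgctcttgtCCAATTGGaatgctcagt
wrd, chr3R:18169058-18169085, plus strand: taaggcatttCCAATTGGaaagcgcgca

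The asymmetric Elba sequence is shown for 5 of the 6 strongest members that hold it, with tun left out. Capitals mark CCAATAAG, which reads CTTATTGG where it points against transcription, as it did in 11 of the 17 members with a match.

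bi, chrX:4426879-4426906, plus strand: ttttggttttCTTATTGGaaccccgcag
Fmr1, chr3R:10109438-10109465, minus strand: cgtacaaattCTTATTGGaaaagcgtgt
mop, chr3L:14775782-14775809, minus strand: aaatgcgttgCTTATTGGattcatattg
Hr78, chr3L:21497298-21497325, minus strand: taacagacgtCCAATAAGaattttcaaa
Polr3A, chrX:15762858-15762885, plus strand: agttattattCTTATTGGcgtaaagcgg

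Dpm3 and rdx, the second and the fourth in signal, held neither sequence but several octamers close to the palindrome. Their 201 bases around the summit, which overlap no annotated exon, are given along transcription, with octamers in capitals that read C, C or T, A, A, C or T, T, A or G, G on either strand. Dpm3 held 5 of them and rdx held 3.

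Dpm3, chr3R:13403131-13403331, minus strand: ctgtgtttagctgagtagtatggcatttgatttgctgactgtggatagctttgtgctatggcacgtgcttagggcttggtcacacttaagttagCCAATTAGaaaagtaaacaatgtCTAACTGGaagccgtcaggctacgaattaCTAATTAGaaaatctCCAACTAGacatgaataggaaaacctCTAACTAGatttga
rdx, chr3R:14026269-14026469, minus strand: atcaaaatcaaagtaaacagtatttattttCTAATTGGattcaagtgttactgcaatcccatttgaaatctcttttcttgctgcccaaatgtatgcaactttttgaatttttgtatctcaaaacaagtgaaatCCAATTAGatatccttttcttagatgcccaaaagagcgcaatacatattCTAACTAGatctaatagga

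The leading members included the strongest regions of the whole data set, and their order was much alike in the 3 replicates. Prosap (FBgn0040752), which encodes a Shank-family scaffold of the postsynaptic density, had the highest signal of all thresholded regions, 1202, and ranked 2, 1 and 1 in replicates 1, 2 and 3. Its region, chr2R:14140896-14141412, had the summit 182 bp upstream of the start. Dpm3 (FBgn0053977), a subunit of the enzyme that makes dolichol phosphate mannose for glycosylation, followed with a signal of 1159 and ranks 1, 2 and 2. Its region, chr3R:13402996-13403468, peaked 180 bp upstream. These regions took the first and second place in every replicate list, in either order.

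The next members encode proteins of unrelated roles. At tun, a protein N-terminal glutamine amidohydrolase, the signal was 752.3, the ranks were 6, 9 and 4, and the summit lay 448 bp upstream within an intron of a longer transcript. The region at rdx, the roadkill gene whose product targets Cubitus interruptus of the Hedgehog pathway for degradation, had a signal of 682 and ranks 18, 5 and 7, with the summit 407 bp upstream and also in an intron of its own gene. Ugt36A1, a UDP-glycosyltransferase, had 647.2 and ranks 9, 7 and 19, with the summit 45 bp downstream of the start in the 5′ UTR. CG10602 and the mitochondrial ribosomal protein gene mRpL13 are annotated from the same base on the same strand, and the region 92 bp upstream of it had 599.3 and ranks 14, 23 and 10.

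Below these came cib, which encodes the actin-binding protein Ciboulot, with 574.4 and ranks 10, 22 and 16, its summit 40 bp upstream. The rudimentary gene r, whose product starts pyrimidine synthesis, had 531.6 and ranks 17, 21 and 22. Plod, the procollagen lysyl hydroxylase that modifies collagen IV, had 502.2 and ranks 22, 19 and 27, and its summit lay 243 bp downstream in a coding exon. The wing vein gene px followed with 413.9 and ranks 23, 57 and 61. Uba1, the ubiquitin-activating enzyme, stood apart in its replicates, with 401.3 and ranks of 120, 27 and 25, the lowest place that any of the 25 strongest members took.

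The members included 3 genes of T-box transcription factors, which bind DNA through the T domain and pattern the embryo. All 8 T-box genes of the fly have a start of this class, whatever their other starts, so 3 of 8 had a member. This stands beside 2.31% of all genes with such a start. This grouping was made after the values were seen, and its count carries no test. H15 had a signal of 630.8 and ranks 11, 10 and 17, with its summit 472 bp upstream. Its neighbour and paralogue mid, which like H15 is needed in heart and nervous system development, had 408 and ranks 39, 39 and 44, with its summit 220 bp upstream. The optomotor-blind gene bi had 400.9 and ranks 25, 60 and 46, with its summit 209 bp upstream. At H15 the window held neither known sequence, at mid it held the palindrome and at bi the Elba sequence, as shown above, and both of the latter windows also held runs of GAGAGAG.

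The other 11 of the 25 strongest members had signals from 316.7 to 399.8, and ranks from 31 to 85 in replicate 1, 25 to 111 in replicate 2 and 26 to 103 in replicate 3. In order of signal they were Hmt-1, an ABC transporter, Rfx, a regulator of genes for cilia, sens-2, a zinc finger paralogue of senseless, Aldh-III, an aldehyde dehydrogenase, PpV, a protein phosphatase, Fmr1, the RNA-binding protein of fragile X syndrome, dlg1, a junctional scaffold, Alg3, a mannosyltransferase of the endoplasmic reticulum, Btk, a cytoplasmic tyrosine kinase, mop, which acts in endosomal sorting, and CG14100. All 25 were among the 1000 highest-ranked regions of each replicate. Of them 18 had the summit upstream of the start, 12 lay between genes, 9 in an intron of their own gene, 3 in a 5′ UTR and 1 in a coding exon. In 23 of these 25 the deposited summit lay off the middle of the region, whereas over all members it lay at the middle in 205 of 244. Whether a summit at the middle is a measured maximum was not tested.

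**Figure D1:**
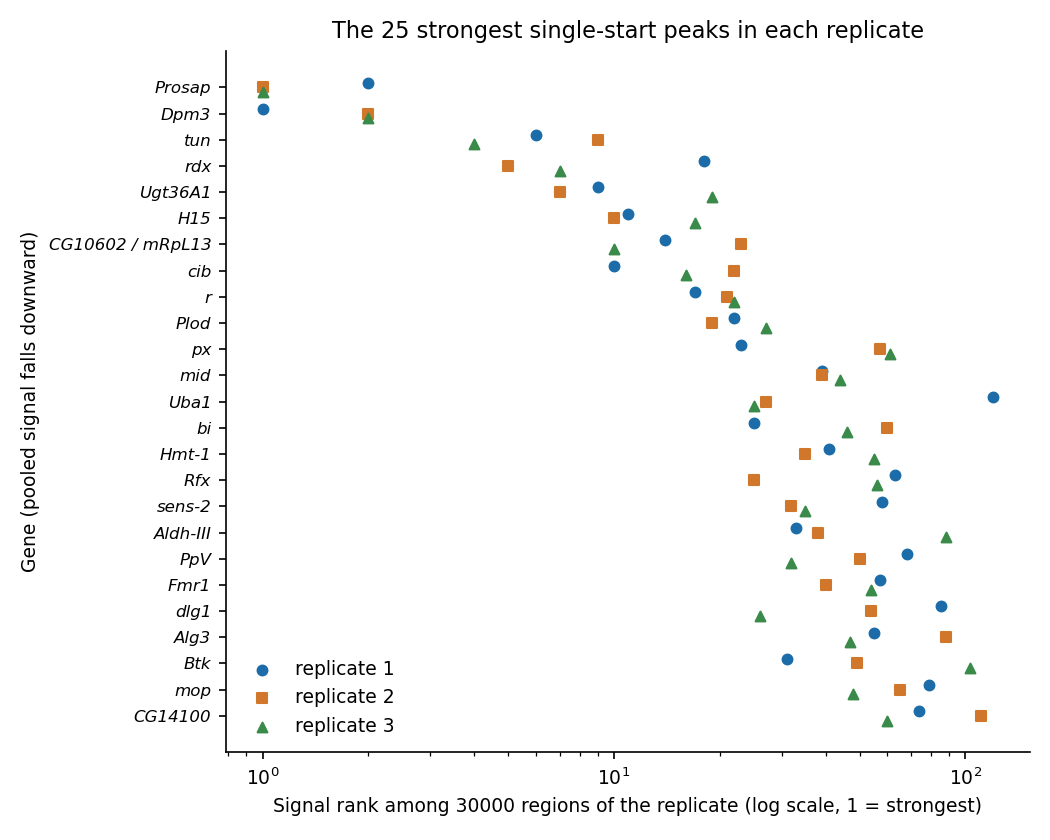
Rank of the 25 strongest single-start regions in each replicate, on a logarithmic axis where 1 is the strongest of 30000 regions; each symbol is 1 replicate and genes run from the highest to the lowest pooled signal. The first 14 rank no lower than 61 in any replicate, except Uba1 at 120 in replicate 1, which is the lowest place taken by any of the 25.

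Signal over all 244 members ran from 75.43 to 1202 with a median of 127.9 (interquartile range 94.4 to 195.3). Of them 169 exceeded 100, 58 exceeded 200 and 28 exceeded 300. The weakest were Gs2, CHES-1-like, dnc, Rab9 and Hex-A, between 75.43 and 76.25, and their ranks scattered: Gs2, a glutamine synthetase, ranked 720, 1448 and 3050, and dnc, the cAMP phosphodiesterase Dunce, ranked 564 and 721 in replicates 1 and 3 and met no region of replicate 2. An overlap with the 1000 highest-ranked regions of every replicate was found for 164 of 244 members (67.2%, exact 95% interval 60.9 to 73.1%), beside 65.4% of all thresholded regions, 81.5% of those at divergent starts and 55.6% of those away from starts. Replicates 1, 2 and 3 alone recovered 90.2%, 89.3% and 79.5% of the members. Only 3 of the 25 weakest members were recovered in every replicate. A member takes the rank of the strongest region it meets, so neighbouring calls can share ranks. Among those 3, Alp12 and RpS26 had the same ranks as a stronger call beside them. With only the strongest of calls within 500 bp, recovery in every replicate was 64.73%. Because the replicates entered the pool from which the regions were called, this recovery is not independent of the choice of regions. Across the 238 members with a region in every replicate, Spearman's rho of rank for replicates 1 and 2 was 0.74, for replicates 1 and 3 0.68 and for replicates 2 and 3 0.78, a description across regions that share the pooled calling.

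Single starts took a larger share of strong regions than of weak ones. Among the 50 strongest pooled regions 19 (38%) were at single starts, in the lower part of the thresholded list 31.1%, and among the 29268 pooled regions below the authors' threshold 12.6%. The share at divergent starts fell too, from 30% of the 50 strongest to 6.04% below the threshold. Applied to each replicate, limited to as many of its strongest regions as the thresholded list holds, the rule chose 239, 246 and 236 regions, or 32.8% ± 0.701 (SD, n = 3). Within those lists the median rank of single-start regions was 333, 345.5 and 335.5. That of divergent starts was 309, 319 and 345, which overlaps with it (mean difference 13.7 ranks ± 20.1 SD, exact sign-flip permutation test over 3 replicates, two-sided, p = 0.5). Regions away from starts ranked lower in each replicate, at 415, 411 and 402, a difference of -71.3 ranks ± 9.25 (same exact permutation test, n = 3, p = 0.25, adjusted p = 0.333 over 20 comparisons by the Benjamini-Hochberg method). With 3 replicates 0.25 is the smallest p that this test allows, so no comparison between classes here can pass 0.05.

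**Figure D2:**
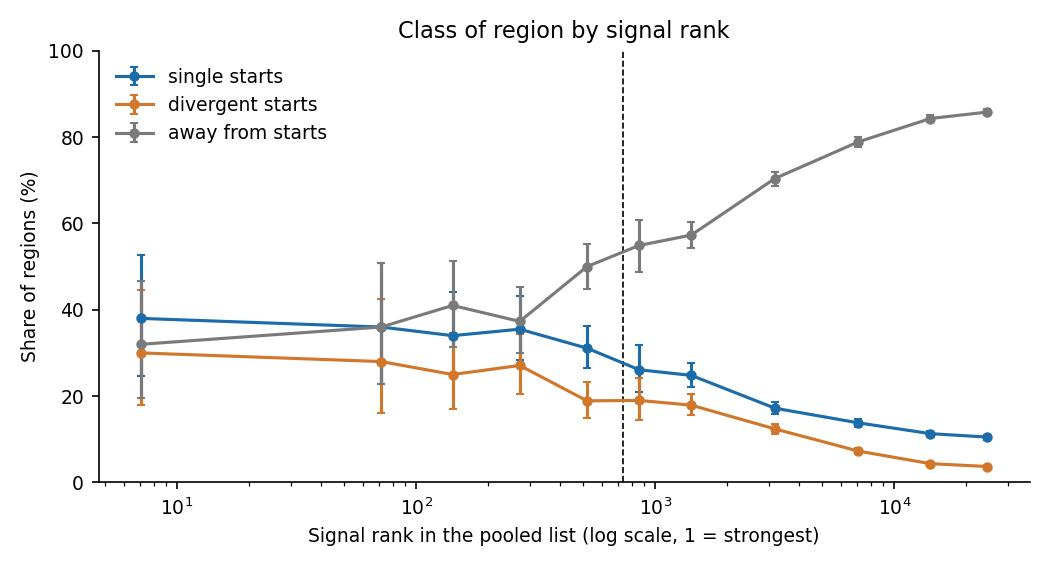
Share of pooled regions (%) that lie at single starts, at divergent starts or away from starts, by signal rank on a logarithmic axis, with exact binomial 95% intervals; the dashed line marks the end of the thresholded list. The share at single starts falls from 38% in the first 50 ranks to 10.5% in the last 10000, and that at divergent starts from 30% to 3.69%.

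Summits lay mostly upstream of the start. For 180 of 244 members (73.8%, exact 95% interval 67.8 to 79.2%) the summit was upstream. It was upstream in 87 of 168 regions at divergent starts (51.8%). The share over all 412 regions within 500 bp of a start, members included, was 64.8%. The median position was -149.5 bp (interquartile range -261.5 to 8.5 bp, upstream negative), and the fullest 100 bp stretch was that from -200 to -100 bp, with 56 members (23%). In the equally long lists of the replicates the upstream share was 69.9%, 70.7% and 70.3% (70.3% ± 0.429, SD, n = 3). The 3702 pooled regions at single starts that missed the threshold were placed otherwise, with 40.8% upstream and a median of 101 bp downstream. Their numbers rose towards the downstream limit of the window, from 275 regions in the 100 bp before the start to 574 in the last 100 bp within it. The median distance of the members from the start was 206 bp (95% interval 181 to 226 bp), and 112 of the 244 regions covered the start itself.

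**Figure D3:**
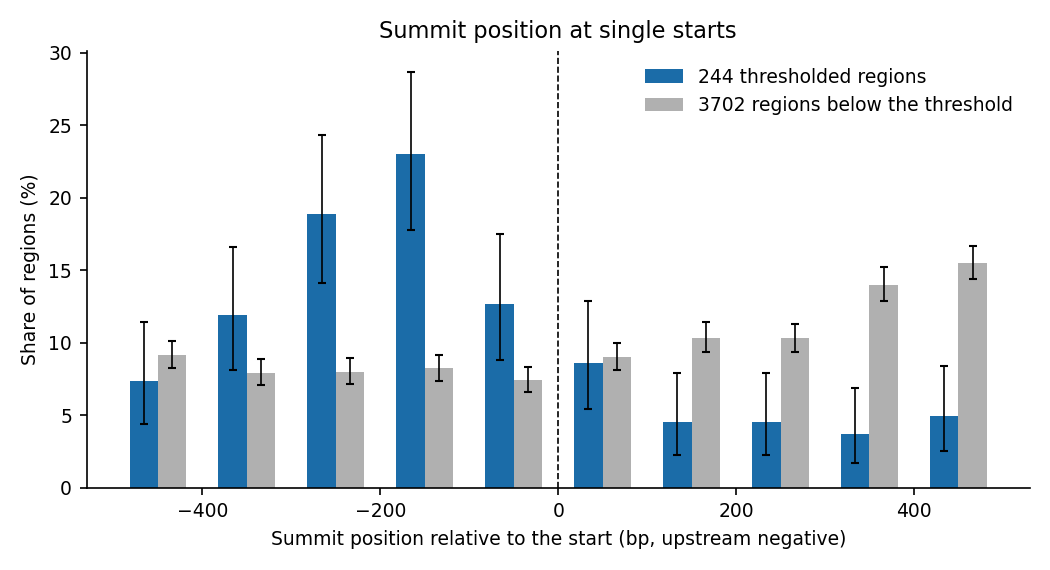
Share of regions (%) by summit position in 100 bp steps around single starts, upstream negative, for the 244 thresholded regions and the 3702 pooled regions below the threshold, with exact binomial 95% intervals. The thresholded regions are fullest between -200 and -100 bp (23%), where 8.24% of the weaker regions lie.

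The limits of the rule fell within continuous values. The members farthest from their start were Gs2 at 482 bp, Orp8 at 487 bp and CG1907 at 500 bp, with signals of 75.43, 103.1 and 193.4. Just outside were enc at 518 bp, Sox21b at 521 bp and jar at 525 bp, with 214.5, 182.8 and 110. The members whose head-to-head neighbour lay just beyond 1000 bp were insv itself, 1009 bp from Elba2, CG9992, 1012 bp from CG4239, and CG33229, 1037 bp from pyx. Just inside that distance, and therefore counted as divergent, were Flo2 at 862 bp, Gclc at 865 bp and CG10413 at 906 bp.

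The starts chosen often belonged to genes with several promoters. The 244 members had 227 distinct nearest starts, 1.72% of the 13216 single starts in the annotation, and 223 of the 9654 protein-coding genes with a single start began there. Here and below, a gene with a single start is one with at least 1 start of this class, whatever its other starts. Counting each start's gene once, 76 of 216 genes (35.2%) had only 1 annotated start, against 70.3% of all genes with a start of this class. Of the 216, 43 (19.9%) had 4 or more, against 4.48%. Both comparisons count each gene once, while a gene with more starts has more places where a member can lie. The start nearest to the summit was the most upstream one of its gene in 59% of member starts and in 67.2% of all single starts, and it lay inside its own gene in 41% and 32.8%. By position, 91 summits (37.3%) lay between genes, 91 in an intron of the gene itself, 45 (18.4%) in its 5′ UTR and 4 in its coding exons, while 8 lay in an intron and 5 in an exon of another gene. Of the 91 intronic summits 68 were upstream of their nearest start, in an intron of a longer transcript, as at tun, rdx, cib and bi. The genes compared were not matched on the number of their starts.

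Several genes carried more than 1 member. Btk and Rtnl1, a reticulon of the endoplasmic reticulum, each had 4 regions over 3 starts. At Btk the signals were 340, 211.2, 131.3 and 80.69, and the stretch shared by the first pair ranked 31, 49 and 103 in the replicates. The 4 regions of Rtnl1 had 279.2, 84, 80.06 and 79.83, and the last of these ranked 274 in replicate 1, 12286 in replicate 2 and met no region of replicate 3. Further, 17 starts had exactly 2 members, among them those of cib, Plod, mid, Rfx, Fmr1, lobo, ct, egl, Archease and nuf. Their summits lay 199 to 210 bp apart (median 202 bp), beside a median region width of 416 bp. At cib the pair had 574.4 and 101.5, at Plod 502.2 and 133.6 and at mid 408 and 115.7. Such a pair counts neighbouring chromatin more than once, and the results were also computed with the strongest call alone.

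The palindrome CCAATTGG, sought on both strands within 100 bp of the summit, occurred in 28 of 244 members (11.5%, exact 95% interval 7.76 to 16.2%), beside 13.4% of all thresholded regions. It was found in 1.43% of windows 1000 bp to either side of the members' summits, in 1.11% of the weaker regions at single starts and in 0.56% of windows centred 150 bp upstream of all 13216 single starts. Its median distance from the members' summits was 31 bp. In the replicates the share at single starts was 8.37%, 10.2% and 11.4%, and at divergent starts 14.4%, 17.1% and 17.7%. The ranges did not overlap, and the mean difference was -6.42 percentage points ± 0.507 (SD, n = 3, exact sign-flip permutation test, two-sided, p = 0.25, adjusted p = 0.333). That order rests on where the line between the classes is drawn: with a head-to-head limit of 500 bp in place of 1000 bp the difference was 0.847 points. Away from starts the shares were 9.29%, 13.2% and 11.8%, which overlap with those at single starts, and the difference of -1.45 points ± 1.39 (same exact permutation test, p = 0.25) changed sign under 5 alternatives and came to -0.662 points without replicate 2.

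Position around the start was also set beside the presence of the palindrome. The summit was upstream in 15 of 28 members with it (53.6%) and in 165 of 216 without it (76.4%), and the matches themselves fell evenly, 14 upstream and 14 downstream. In the replicates 60%, 52% and 55.6% of single-start regions with the palindrome were upstream, against 70.8%, 72.9% and 72.2% of those without (exact sign-flip permutation test, n = 3, p = 0.25). At Plod, with a signal of 502.2, and at wrd, a regulatory subunit of protein phosphatase 2A, with 252.7, the palindrome lay downstream, within the gene. The median signal was 155.2 with the palindrome and 125.2 without it, and the median rank was better with it in each replicate, at 200, 241 and 292 against 349, 367 and 337.

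The bases next to the palindrome were counted after 8 of the members' sites had been read, all of which had T before and A after, so the count is a description with no test. Of the 28 palindromes in members 23 (82.1%, exact 95% interval 63.1 to 93.9%) had both a T before and an A after the 8 bases, the other 5 had 1 of these, and none had neither. The share was 65.7% of 35 sites at divergent starts and 63.4% of 41 away from starts, and 10.6% of all 2939 palindromes on the chromosome arms. Within 500 bp of single starts the genome held 356 palindromes, of which 32 (8.99%) lay inside a thresholded region. Among the 65 with T and A on either side this was 26 (40%), and among the 291 others 6 (2.06%). Without the 8 sites first read, 15 of 20 palindromes in members (75%) had both bases, and 18 of 57 such sites near single starts (31.6%) lay inside a thresholded region. The sites shown above for Plod, mid and sens-2 are of this form.

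Octamers that differ from the palindrome at up to 3 set positions, as in the windows of Dpm3 and rdx shown above, were counted over all members. The form was chosen after those and other windows of the strongest members had been read, so its count is a description with no test. At least 1 was present in 64 of 244 members (26.2%), beside 27% of all thresholded regions, 31.5% of those at divergent starts and 25.3% of those away from starts. It was present in 3.89% of the windows 1000 bp away, in 4.11% of the weaker regions at single starts and in 3.49% of all single starts. Without Dpm3 and rdx the share was 25.3%, and in members that lacked the exact palindrome it was 16.7%. The share was 49.2% among the 61 strongest members and 19.7%, 21.3% and 14.8% in the following groups of 61. Because the strongest group holds the members whose windows were read, its higher share is not independent of the choice of the form. In the replicates it was 22.2%, 25.2% and 26.7% at single starts and, higher in each, 24.9%, 28.6% and 29.7% at divergent starts, a mean difference of -3.02 points. Away from starts it was 20.5%, 27.3% and 24%, lower than at single starts in replicates 1 and 3 and higher in replicate 2.

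**Figure D4:**
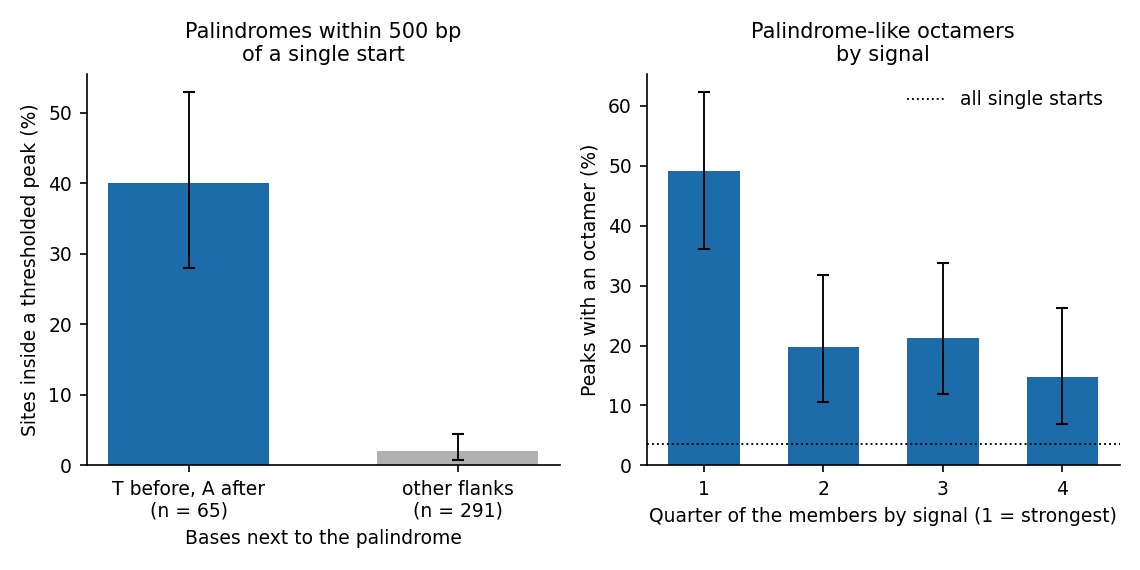
Left, share (%) of exact palindromes within 500 bp of a single start that lie inside a thresholded region, for the 65 with T before and A after and for the 291 others. Right, share (%) of members with an octamer of the palindrome-like form by signal, in groups of 61 from strongest to weakest. The share at all single starts (3.49%) is dotted, and bars carry exact binomial 95% intervals. The strongest group stands at 49.2% and holds the members whose windows were read before the form was chosen.

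The Elba sequence CCAATAAG was present in 17 of 244 members (6.97%), beside 7.79% of all thresholded regions, 0.205% of the windows 1000 bp away and 0.673% of all single starts. No member held both it and CCAATTGG, which 28 members held. With so few holders of either, whether this departs from independent placement was not tested. Its holders were strong, with a median signal of 212.7 against 124.6 for the other members and median ranks of 124, 125 and 139.5 against 346, 364 and 340 in the replicates (exact sign-flip permutation test, n = 3, p = 0.25). Beside tun, bi, Fmr1, mop, Hr78 and Polr3A, the last 2 of which encode a nuclear receptor and the largest subunit of RNA polymerase III and had signals of 295.6 and 291.3, they included the homeobox gene ct with 283.4. The octamer CAATCAGA, taken up because an earlier ranking of these same regions had shown it, occurred in 23 members (9.43%), beside 7.65% of all regions and 0.847% of all single starts. Any of the 3 sequences was found in 64 members (26.2%), in 13 of the 25 strongest (52%) and in 23.3% of the rest, beside 26.9% of all thresholded regions. Among these 13, Prosap, Ugt36A1, r and dlg1 counted only through CAATCAGA. As CAATCAGA was taken from a ranking of these regions, the higher share in the strongest is not independent of its choice.

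Elements of general promoter factors were counted in the same windows. The GAGA repeat GAGAGAG, recognised by GAGA factor, occurred in 26 of 244 members (10.7%), in 2 of 168 regions at divergent starts (1.19%) and in 8.2% of all thresholded regions. In the replicates it was found in 8.79%, 15.9% and 10.2% of single-start regions and in 0.552%, 2.86% and 1.14% of divergent ones. The groups did not overlap, and the difference was 10.1 points ± 2.55 (SD, n = 3, exact sign-flip permutation test, p = 0.25, adjusted p = 0.333). The same order was present in the annotation at large, with 7.98% of all single starts and 2.8% of all divergent starts. Regions away from starts were close to single starts, with a match in 32 of 320 (10%) and in 11.2%, 9.65% and 8.72% in the replicates. There the shares of GAGAGAG overlapped with those at single starts (difference 1.74 points ± 4.33, SD, n = 3, exact sign-flip permutation test, p = 0.75). Each shifted match inside a run was counted on its own, which gave 61 matches in 26 members, 53 of them upstream of the start. By member, the summit was upstream in 22 of the 26 with GAGAGAG (84.6%) and in 158 of 218 without it (72.5%). The matches at mid and bi lay upstream. Their windows are given here with CCAATTGG, CCAATAAG and GAGAGAG in either direction in capitals.

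mid, chr2L:5461319-5461519, plus strand: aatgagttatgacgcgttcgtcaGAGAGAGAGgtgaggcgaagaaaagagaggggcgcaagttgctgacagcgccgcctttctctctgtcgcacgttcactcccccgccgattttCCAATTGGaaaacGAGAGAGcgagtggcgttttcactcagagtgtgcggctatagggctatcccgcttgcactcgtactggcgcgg
bi, chrX:4426826-4427026, plus strand: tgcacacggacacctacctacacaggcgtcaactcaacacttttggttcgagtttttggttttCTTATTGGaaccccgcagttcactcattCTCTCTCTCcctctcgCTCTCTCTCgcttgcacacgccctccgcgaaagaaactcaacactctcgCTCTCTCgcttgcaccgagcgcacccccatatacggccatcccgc

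The DREF element TATCGATA was present in 12 members (4.92%), beside 3.55% of all thresholded regions, 0.41% of the windows 1000 bp away and 2.31% of all single starts. All 13 of its matches lay upstream of the start. Among the members that held it were Ugt36A1, PpV and Alg3. In the replicates its share was 5.44%, 4.88% and 5.08% at single starts and 0.641%, 0.643% and 0.312% away from starts, with a difference of 4.6 points ± 0.318 (exact sign-flip permutation test, n = 3, p = 0.25, adjusted p = 0.333). Divergent starts had more in each replicate, at 5.52%, 7.43% and 7.43%, and 6.58% of all divergent starts hold the element. The M1BP element GGTCACAC was also in 12 members (4.92%), beside 3.14% of all regions and 0.961% of all single starts, and in the replicates in 5.44%, 5.28% and 5.08% of single-start regions against 0.641%, 0.322% and 0.312% away from starts. At divergent starts its share was 4.42%, 6.29% and 6.86%, which overlaps with that at single starts. Both elements are known from promoters, and the classes were defined by distance from a start. The windows of all starts were centred 150 bp upstream and reached 100 bp to either side, so they did not cover the start. Those of the members followed the summits, and the median match lay at -47.5 bp for TATCGATA and -21.5 bp for GGTCACAC. The shares of members and of all starts, here and in the next sentence, are therefore not like for like. CAGCTG was found in 13.5% of members beside 11.1% of all regions, TATAAA in 22.5% beside 23.4%, and the initiator-like TCAGT in 28.7% beside 26.1%, and at all single starts these stood at 9.44%, 27.9% and 29.8%.

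**Figure D5:**
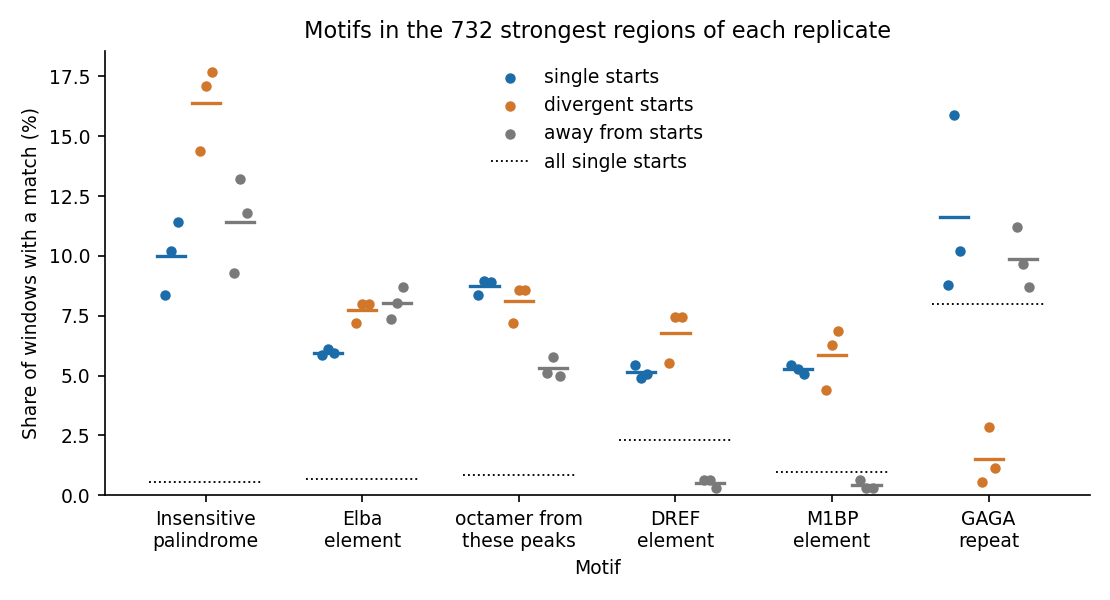
Share (%) of the strongest regions of each replicate, as many as in the thresholded list, with a match within 100 bp of the summit, by class. Each point is 1 replicate and bars are means of 3. Dotted lines give the share in windows centred 150 bp upstream of all 13216 single starts, which do not cover the start. The palindrome of Insensitive is at 8.37 to 11.4% at single starts and 14.4 to 17.7% at divergent starts, and the GAGA repeat at 8.79 to 15.9% and 0.552 to 2.86%. Away from starts the GAGA repeat is at 8.72 to 11.2%.

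By function the members were spread over many pathways, each represented by few genes, and the counts below stand beside 2.31% of all genes with a single start. The lists were chosen with earlier results of these data known, so their counts are descriptions with no test. Of the glycolysis genes with a single start 3 of 10 had a member, namely Gapdh2, Hex-A and Ldh, which encode glyceraldehyde phosphate dehydrogenase, hexokinase and lactate dehydrogenase. All were weak, with signals of 83.44, 76.25 and 80.21, and none was recovered in every replicate: Gapdh2 ranked 868 and 425 in replicates 2 and 3 and met no region of replicate 1. In N-glycosylation 2 of 5 genes had one, Dpm3 and Alg3, both among the 25 strongest. Among the Notch pathway genes listed it was 2 of 10. The co-repressor gro had 140.6 and ranks 182, 446 and 1976. The glycosyltransferase fng, which modifies Notch, had 137.6 and ranks 396, 278 and 417. The gene E(spl)m7-HLH, not counted in this list, was also a member, with 103.4 and ranks 330, 467 and 5468.

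Among neural RNA-binding proteins 2 of 12 genes had a member, Fmr1 and elav, the latter with 97.8, ranks 828, 1886 and 301 and a summit in an intron of another gene. In the list for actin and adhesion it was 2 of 8, cib and Cdc42, in the list for lipid and nucleotide synthesis 2 of 14, r and AcCoAS, and among mitochondrial ribosomal proteins 2 of 15, mRpL13 and mRpL40. Of these, Cdc42 had a signal of 154.3, AcCoAS 77.42 and mRpL40 77.09. A single gene was found in each of 7 further lists, namely Plod of 15 for collagen IV and basement membrane, CycE (195.6) of 14 for the cell cycle, ph-p (274.3 at its stronger region) of 8 for the Polycomb group, insv of 10 for insulator and promoter factors, rdx of 6 for Hedgehog, sgg (131.8) of 11 for Wingless and RpS26 (142.6) of 42 cytoplasmic ribosomal proteins. None of the 7 vacuolar proton pump genes, 16 proneural and neuroblast genes or 26 proteasome genes listed had one. The proneural and neuroblast list is not complete. The genes pdm2 (253.7), svp (212.5) and erm (170.1), which it left out, had members. Lists this short give wide intervals, 6.67 to 65.2% for glycolysis and 5.27 to 85.3% for N-glycosylation. These intervals cover counting error only and not the choice of the lists, which was made with earlier results known.

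The gene insv itself had a single-start member at chr2L:2576460-2576875, 10 bp downstream of a start, with a signal of 91.02. It ranked 1249, 479 and 435 in the replicates, outside the first 1000 regions of replicate 1. Whether the tagged construct also holds this stretch was not stated, and any part of it in the signal was not tested.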

How the data were processed

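Chromatin from 3 biological replicates of 1 group was analysed. It was not stated that the replicates were collected separately, so the spread between these samples may be technical. The sign-flip test gives its smallest p, 0.25, whenever the 3 within-replicate differences share a sign, whatever their spread. The lists of regions, each with the authors' deposited signal value, comprise 30000 regions per replicate, 30000 for the pooled replicates and 732 that passed a reproducibility threshold, per the labels and the text lists deposited with the samples. These 732 equalled the 732 highest signals of the pool. Caller, aligner, threshold and depth were not given in the sources used here. Intervals are exact binomial 95% intervals that cover counting error only. The dm3 lists were not used here.

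Starts and gene models came from Ensembl release 115 (BDGP 6.54) and sequences from the RefSeq release 6 assembly, the same assembly as dm6. Analyses used Python 3.11.15, NumPy 2.4.6, pandas 2.3.3, SciPy 1.17.1 and matplotlib 3.10.9 and were tested on simulated positions. A region's rank in a replicate is that of the strongest region overlapping it by at least 1 bp. Differences between classes were computed within each replicate's 732 strongest regions and tested by exact sign flips. Regions are not replicates and were not tested as such.

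Named genes were those nearest to the 25 strongest members, to the strongest members with CCAATTGG or CCAATAAG, to starts with several members, to the 5 weakest and to the limits of the rule, and the genes of the lists. The members, motifs and gene lists were chosen with earlier results of these data known. In the lists 11 symbols were matched through a synonym and 1 was not matched. Alternatives covered other distances, overlaps, windows, list lengths, the stronger 50% of regions, merged neighbours and each replicate left out.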

Additional observations from a re-analysis of the deposited data

How the results depend on the processing

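No paired analysis between groups was possible because there is only 1 group, whereas the classes of region were compared within each replicate. The share of summits upstream (69.34 to 75.25%) and the GAGAGAG difference from divergent starts (4.545 to 18.22 points), whose alternatives were added after seeing the data, kept their direction in every alternative run. The rank difference from regions away from starts stayed negative in the mean (-131.7 to -10.17), but in the stronger 50% of each list, at -10.17 ± 16.4 (exact permutation test, n = 3, p = 0.5), the replicates did not share a sign. Between 18 and 25 of the 25 strongest members stayed in the class. With 250 bp as the limit of nearness, 153 regions were at single starts, 74.51% were found in every replicate, the median distance was 137 bp and 19.85% of the replicates' strongest regions qualified; with 1000 bp the distance, a setting added after seeing the data, was 256 bp and the share 42.08%. Head-to-head limits of 500 and 2000 bp gave shares of 39.34% and 27%, and the 1000 strongest regions 31%. In the stronger 50% of regions 130 were at single starts, with a median signal of 190, a median distance of 180.5 bp, 96.15% recovery and a share of 35.52%. Recovery in every replicate was 59.43% with an overlap of 50% of the region, 60.25% when only as many of a replicate's strongest regions were used as the thresholded list holds, 80.74% among the 2000 strongest, and 72.95 to 79.51% when a replicate was left out, where fewer lists must match.

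The palindrome was in 6.967% of members within 50 bp and 17.21% within 200 bp of the summit. Its difference from divergent starts turned to 0.847 points with the 500 bp head-to-head limit. Its difference from regions away from starts turned to 0.3217 and 0.4789 points with nearness limits of 250 and 1000 bp, 1.532 with the 500 bp head-to-head limit, 0.4035 in the 1000 strongest regions and 1.134 within 200 bp of the summit; the cause was not tested. With a replicate left out these differences ranged from -6.627 to -6.135 and from -1.974 to -0.662 points, the share at single starts from 32.45 to 33.13%, and the rank differences from 7.25 to 25.25 against divergent starts and from -74.25 to -66 against regions away from starts.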

Other observations

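By chromosome arm, the X chromosome held 59 members (24.2%) and 17.4% of all single starts, arm 2R 15.6% and 20.6%, arm 3L 14.8% and 19.4%, arm 2L 20.9% and 18.5%, and arm 3R 24.6% and 23.2%. None lay on chromosome 4, which holds 0.863% of all single starts. These shares were not tested.

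The surroundings of the starts were compared with those of all single starts. A gene on the same strand was upstream of 34.4% of member starts and 39% of all single starts, and a head-to-head gene beyond 1000 bp of 19.4% and 16%. Starts inside another gene were 5.29% of member starts and 12.3% of all. The median GC content of the windows was 38.8% for the members and for all single starts.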
